A study of Mus musculus with 5 samples.

Results

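The Popeye domain genes Bves (also called Popdc1), Popdc2 and Popdc3 were followed across 5 one-colour arrays of cells sorted from the muscle of mdx mice, which lack dystrophin and model Duchenne muscular dystrophy. The genes were taken by name from the array's annotation and were chosen by their measured array levels, since 2 of the 3 are among the largest differences between muscle stem cells and interstitial cells, so their levels in that comparison are given as a description, with no test. Each gene had 1 probe, giving 3 probes of 55681 on the array and 3 genes of 36409 genes and unnamed features.

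All mice carried the mdx mutation (DMD/MDX) on the C57BL/6 strain and were injected intraperitoneally for 45 days with vehicle or with trichostatin A (TSA), a histone deacetylase inhibitor, at 0.6 mg/kg. Sca1+ interstitial cells were sorted as CD34+/a7-integrin+/Sca1+, with 2 arrays from vehicle-treated and 2 from TSA-treated mice. Muscle stem cells (MuSC, or satellite cells) were sorted as CD34+/a7-integrin+/Sca1-, with 1 array from vehicle-treated mice, and there was no array of MuSC after TSA. The labels give no age, no sex and no number of mice behind an array, so the p-values cover variation among these arrays alone, and that variation could be technical. The study's title places the interest in how histone deacetylase inhibitors affect the ability of Sca1+ interstitial cells to promote muscle formation.

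Popeye domain proteins are membrane proteins of skeletal and heart muscle whose cytoplasmic Popeye domain binds cyclic AMP, the second messenger made by adenylyl cyclases and broken down by phosphodiesterases. They bind to one another and to partners that include the potassium channel TREK-1 (Kcnk2) and caveolin-3 (Cav3). In humans, recessive variants of BVES and of POPDC3 cause limb-girdle muscular dystrophy, and loss of BVES or POPDC2 disturbs the rhythm of the heart.

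The measurements of each gene rest on 1 probe of 60 bases, shown so that the measured stretch of transcript can be recognised. The probes read 5′ to 3′ in lower case, with the whole probe given for Popdc3 and the first 30 bases for Bves and Popdc2.
Popdc3: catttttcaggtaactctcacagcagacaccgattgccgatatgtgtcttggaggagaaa
Bves: ctcatctctgtcatgggaatttagaacgag
Popdc2: gactccatcctttatgggttgcaggacatt
In the array's mm9 annotation the Bves probe (NM_024285) lies at chr10:45089408-45089467 and the Popdc2 probe (NM_022318) at chr16:38378016-38378075. The Popdc3 probe (NM_024286) lies at chr10:45036336-45037554, so its 60 bases are spread over 1219 bases of the genome and the probe crosses at least 1 intron, matching the spliced transcript. Whether the Bves and Popdc2 probes lie in coding sequence or in a UTR was not analysed here. The GC content was 35% for the Bves probe, 55% for the Popdc2 probe and 45% for the Popdc3 probe.

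Levels are the log2 processed signal of the scanner software minus the log2 75th percentile of the same array, so 0 is the level of a spot at that percentile, and levels of different genes are not set against each other because probes differ in brightness. That percentile stood at a signal of 235 and 165 for vehicle, 326 and 452 for TSA and 240 for MuSC. Between 58.5% and 66.9% of spots per array were well above background, the scanner software's flag for a detected spot, and 0 spots were saturated. Replicate 1 of each group was on slide 1 and replicate 2 on slide 2, so every TSA array had a vehicle array on its own slide, and the MuSC array was on slide 1.

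Bves and Popdc3 were not detected in Sca1+ interstitial cells of vehicle-treated mice, were detected in those of TSA-treated mice and were brightest in MuSC. Popdc2 was detected in all 3 groups, at levels in vehicle-treated and TSA-treated Sca1+ cells that differed by 0.15 on the log2 scale, and was also brightest in MuSC. In the test of TSA against vehicle over all genes, Bves and Popdc3 rose and Popdc2 did not pass.

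The Bves product, the founding member of the family, is an adhesion-related protein of the muscle cell membrane. Its spot gave a processed signal of 6.89 ± 2.23 and 1.68 ± 1.69 in vehicle (the extraction's error for the spot), 180 and 337 after TSA, and 1623 in MuSC. Neither vehicle spot was well above background, although the first was positive and significant against its local background by the scanner software's own test. On the normalized log2 scale the Bves levels were -5.09 and -6.62 in vehicle, -0.86 and -0.42 after TSA, and 2.76 in MuSC. The vehicle levels were lowest and the MuSC level highest. The vehicle mean of -5.85 ± 1.08 (SD, n = 2) had a wider spread than the TSA mean of -0.64 ± 0.31 (SD, n = 2).

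Popdc3, the family member next to Bves on the chromosome, followed the same order. Its spot gave a processed signal of 2.12 and 1.71 in vehicle, 123 and 182 after TSA, and 1032 in MuSC. Neither vehicle spot was well above background, and the value of 2.12 was a surrogate that the scanner software set in place of a signal too low to use. The Popdc3 log2 levels were -6.80 and -6.59 in vehicle (mean -6.69 ± 0.14, SD, n = 2), -1.41 and -1.32 after TSA (mean -1.36 ± 0.065, SD, n = 2), and 2.10 in MuSC. Vehicle was lowest and MuSC highest.

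Popdc2, best known as a heart and skeletal muscle protein that pairs with the Bves product, was well above background on all 5 arrays. Its spot gave a processed signal of 130 and 93.7 in vehicle, 199 and 284 after TSA, and 1002 in MuSC. Its log2 levels were -0.86 and -0.81 in vehicle (mean -0.84 ± 0.034, SD, n = 2), -0.71 and -0.67 after TSA (mean -0.69 ± 0.026, SD, n = 2), and 2.06 in MuSC. The TSA and vehicle levels were close, with means of -0.69 and -0.84, and the MuSC array stood far above both groups.

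**Figure D1:**
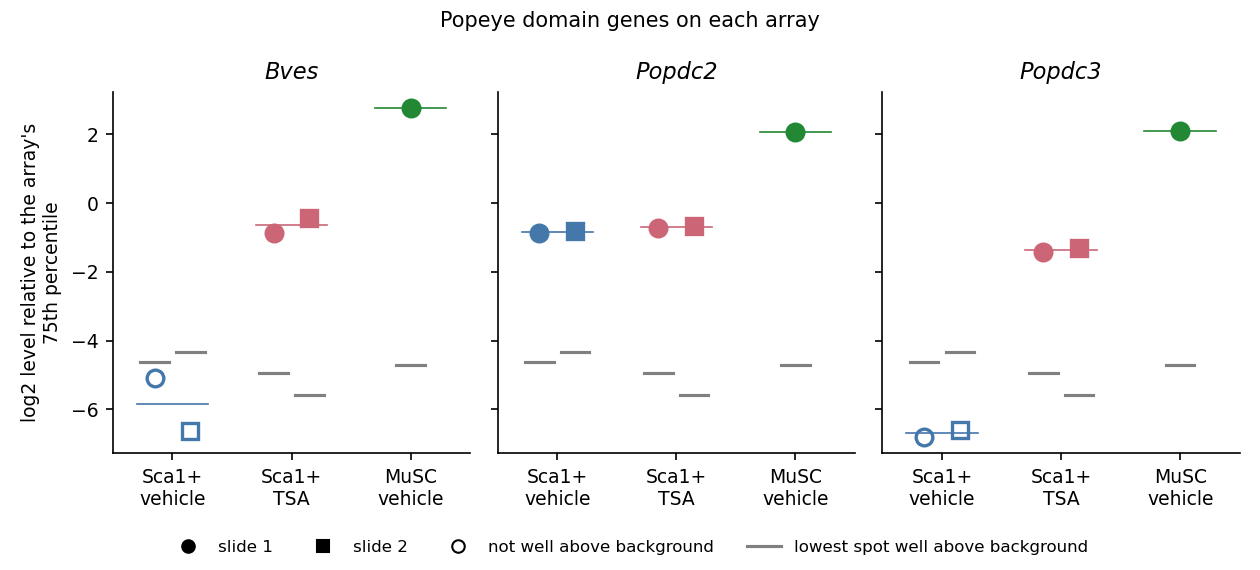
Log2 level (log2 processed signal minus the array's 75th percentile) of Bves, Popdc2 and Popdc3 on each of the 5 arrays, by group. Circles are slide 1 and squares slide 2, open points are spots not well above background, thin lines are group means and grey ticks the lowest signal well above background on each array; Bves and Popdc3 are at -5.09 or below in vehicle, between -1.41 and -0.42 after TSA and at 2.10 or above in MuSC, while Popdc2 lies between -0.86 and -0.67 on all 4 Sca1+ arrays.

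The order of the group means was vehicle, TSA, MuSC for each of the 3 genes, with vehicle and TSA only 0.15 apart for Popdc2. The MuSC difference was part of the choice of the genes, and the share of all features in this order was not counted. With 1 MuSC array the spread of that group is unknown, and the SE and p-value of any test of MuSC against vehicle given for other genes take their spread from the 4 Sca1+ arrays alone, assuming that MuSC arrays would vary as those do. In MuSC the Bves level was 8.61 above the vehicle mean on the log2 scale (7.85 and 9.37 above the single vehicle arrays), and the Popdc3 level was 8.80 above it (8.90 and 8.70). Because both genes were below detection in vehicle, their folds are lower bounds, computed as the mean of the bright group over the dim group's mean of, per array, the higher of its own value and the lowest signal of a spot well above background. By that bound Bves was at least 150-fold higher in MuSC than in vehicle-treated Sca1+ cells, and for Popdc3 the bound was at least 95.7-fold. Popdc2, measured on both sides, was 2.90 higher on the log2 scale (2.92 and 2.87 against the single vehicle arrays), a 7.45-fold difference.

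Against TSA-treated Sca1+ cells, where all 3 genes were detected, the MuSC levels were closer together. The MuSC array was 3.40 higher on the log2 scale for Bves (3.61 and 3.18 against the single TSA arrays), or 10.5-fold. For Popdc3 it was 3.47 higher (3.51 and 3.42), or 11.0-fold, and for Popdc2 it was 2.75 higher (2.77 and 2.73), or 6.73-fold. This comparison also crosses treatment, since the MuSC came from vehicle-treated mice, so cell type and treatment cannot be told apart in it.

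TSA against vehicle in Sca1+ cells was tested with limma over 26091 genes and features, with Benjamini-Hochberg adjustment and a threshold of 0.05. The vehicle arrays in this test are also in the comparison that chose the genes, so low vehicle values entered both. Bves and Popdc3 passed, 2 of 3, where 708 of all features tested (2.71%) were higher and 70 (0.268%) were lower after TSA. A gene was tested if it was well above background on all arrays of at least 1 group. Bves and Popdc3 met this only through the TSA and MuSC groups, where they were high. With no such filter 280 features were higher and 3 lower, Popdc3 still passed and Bves did not. With normexp background correction (offset 50) in place of the scanner software's, the split over all features was 1327 higher and 4337 lower. The median difference over all features was -0.13, with 5th and 95th percentiles of -0.89 and 1.07.

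Bves rose by 5.21 ± 0.56 on the log2 scale (SE; 95% confidence interval 3.70 to 6.72; limma adjusted p = 0.0276), by 4.23 on slide 1 and 6.19 on slide 2. As a bound, Bves was at least 14.3-fold higher after TSA. Popdc3 rose by 5.33 ± 0.16 (95% confidence interval 4.89 to 5.77; limma adjusted p = 0.00358), by 5.39 and 5.28 on the slides, and was at least 8.66-fold higher. The fitted differences of both genes rest on vehicle signals below detection, including a surrogate value for Popdc3 on slide 1. On slide 2 the vehicle spots lay below their local background, at medians of 25 against 29 for Bves and 26 against 30 for Popdc3. Neither was positive and significant, and whether surrogates were set was not recorded there. The SE, intervals and p-values of both genes rest in part on the spread of these vehicle values, which may not be variation between replicates. The size of the differences moves with the background correction and the offset used with it. With normexp and an offset of 50 added to the signals, they were 1.57 for Bves and 1.10 for Popdc3, with both calls kept. The bounds hold for the scanner software's correction only.

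For Popdc2 the difference was 0.15 ± 0.14 on the log2 scale (95% confidence interval -0.24 to 0.54; limma adjusted p = 0.559), with 0.15 on slide 1 and 0.14 on slide 2, a fitted fold of 1.11. The interval does not show that Popdc2 was unaffected, and its upper end of 0.54 lies below the lower ends of the Bves and Popdc3 intervals; the difference between the genes was not tested.

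Both calls rest on having 2 TSA arrays. Without TSA replicate 1 the adjusted p was 0.163 for Bves and 0.0713 for Popdc3, and without TSA replicate 2 it was 0.181 and 0.0692. In both cases 0 features of the whole array passed in limma, with 4913 and 3099 features at an unadjusted p under 0.05. The Bves call was also lost when dim probes were not filtered out (adjusted p = 0.0736, difference 5.21). Over all alternatives the limma adjusted p ran from 1.61e-09 to 0.181 for Bves and from 3.92e-07 to 0.0713 for Popdc3.

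The only promoter of the 3 genes in the RefSeq table used here is that of Popdc2, the member with signal in every group, and it is shown for its sequence motifs near the start of the transcript. It covers 250 bases before and 50 after the start on the plus strand, GRCm38.p6 chr16:38361940-38362239, with E-boxes in capitals.
Popdc2 promoter: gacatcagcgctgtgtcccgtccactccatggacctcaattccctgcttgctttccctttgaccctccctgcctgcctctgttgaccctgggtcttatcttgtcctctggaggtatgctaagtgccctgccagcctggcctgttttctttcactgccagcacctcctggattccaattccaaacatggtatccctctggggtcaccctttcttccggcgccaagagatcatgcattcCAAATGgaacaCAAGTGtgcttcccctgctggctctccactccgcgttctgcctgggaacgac
The E-box, CANNTG on either strand, is the core motif bound by basic helix-loop-helix factors such as the myogenic regulators. It had 2 matches, CAAATG starting 13 bases and CAAGTG starting 2 bases before the transcript start, and 72.3% of the 32851 promoters in the table hold at least 1. The window held no CAGCTG (16.3% of promoters hold it), no CACCTG (20.2%), no TATAAA (13.6%), and no match to the MEF2 (3.19%) or CArG (1.63%) motif. Its GC content was 56%, against a median of 52.7% over all promoters. A match of letters describes the sequence and is not evidence of a bound site.

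Bves and Popdc3 are neighbours on chromosome 10, in the order Prdm1, Prep, Popdc3, Bves, Lin28b, Hace1 in the RefSeq gene table, and Popdc2 lies on chromosome 16 between Cox17 and Pla1a. The nearest protein-coding genes on each side were examined to see whether the change after TSA extended past the 2 members. None of them passed the test of TSA against vehicle. Prep, a prolyl peptidase next to Popdc3, differed by 0.35 ± 0.17 (SE, limma adjusted p = 0.284), Hace1, a ubiquitin ligase, by 0.15 ± 0.15 (adjusted p = 0.556) with its 2 probes at -0.44 and 0.15, and Prdm1, a transcriptional repressor, by -0.09 ± 0.42 (adjusted p = 0.908). Lin28b, which regulates let-7 microRNAs and lies next to Bves, was dim on every array, never well above background, and was not tested. Around Popdc2, Pla1a, a phospholipase, differed by -1.09 ± 0.18 (adjusted p = 0.0701), Adprh by -0.57 ± 0.20 (adjusted p = 0.203), Cox17, a copper chaperone of the respiratory chain, by -0.29 ± 0.32 (adjusted p = 0.601) by its brightest probe and 1.28 by its other detected probe, and Maats1 by -0.38 ± 0.18 (adjusted p = 0.274).

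In MuSC against vehicle, with the spread taken from the Sca1+ arrays, Prep was 0.90 ± 0.20 higher (adjusted p = 0.0456) and Pla1a 4.49 lower, a difference of -4.49 ± 0.22 (limma adjusted p = 0.00157). The other neighbours tested did not pass in MuSC.

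**Figure D2:**
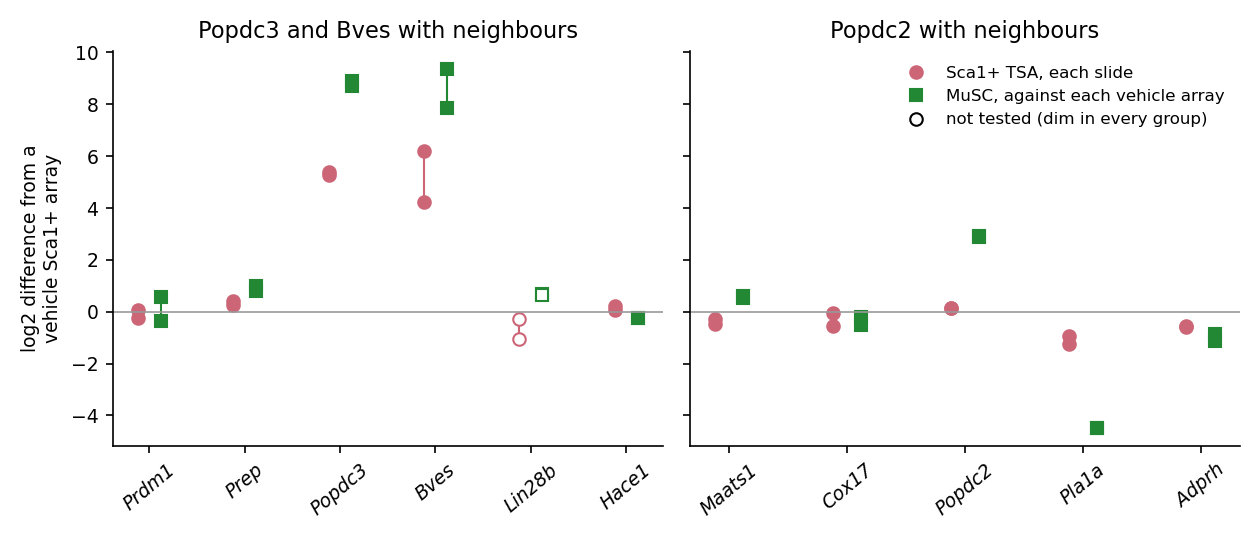
Log2 difference of each TSA array from the vehicle array of its slide (circles) and of the MuSC array from each vehicle array (squares), for the genes in chromosome order around Popdc3 and Bves and around Popdc2; open points are the untested Lin28b. For TSA, Popdc3 stands at 5.39 and 5.28 and Bves at 4.23 and 6.19, while Prep and Hace1 have means of 0.35 and 0.15.

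The genes whose levels ran most like each member were found by the root mean square distance on the log2 scale over the 5 arrays, each gene centred on its own mean, among 14827 genes well above background on the MuSC array. This is a description of 5 arrays in which the groups set most of the distance, and it was not tested. The vehicle values of Bves and Popdc3, and of Vgll2 and Calcr among the genes near them, were not well above background. Chrnd and Rbm24 were well above it on 1 of 2 vehicle arrays. Distances that include any of these genes rest in part on values below detection. Popdc3 was nearest to Actc1, a cardiac-type alpha-actin of developing muscle, at 0.185, then to Vgll2, a transcriptional cofactor of muscle, at 0.242, Myog, a myogenic transcription factor, at 0.246, Chrna1, a subunit of the muscle acetylcholine receptor, at 0.421 and Calcr, the calcitonin receptor, at 0.429. Bves was nearest to Chrnd, another acetylcholine receptor subunit, at 0.465, Rbm24, a muscle splicing regulator, at 0.512, Myog at 0.517, Actc1 at 0.549 and Popdc3 at 0.562.

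Popdc2 was nearest to none of these genes. Its nearest were Tmem255a at 0.0935, Dnajb1, a heat shock co-chaperone, at 0.115, Hspa1a at 0.126, Slc43a2, an amino acid transporter, at 0.130 and Tceal6 at 0.141. Hspa1a has a near-identical copy, Hspa1b, so its value is uncertain. The 2 detected probes of Tmem255a differed from vehicle by 1.48 and 2.72 in MuSC. The log2 levels behind the nearest pairs were, for Actc1, -3.47 and -3.32 in vehicle, 1.46 and 1.61 after TSA and 5.13 in MuSC, and for Tmem255a, -1.85 and -1.58, -1.67 and -1.61, and 1.01.

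**Figure D3:**
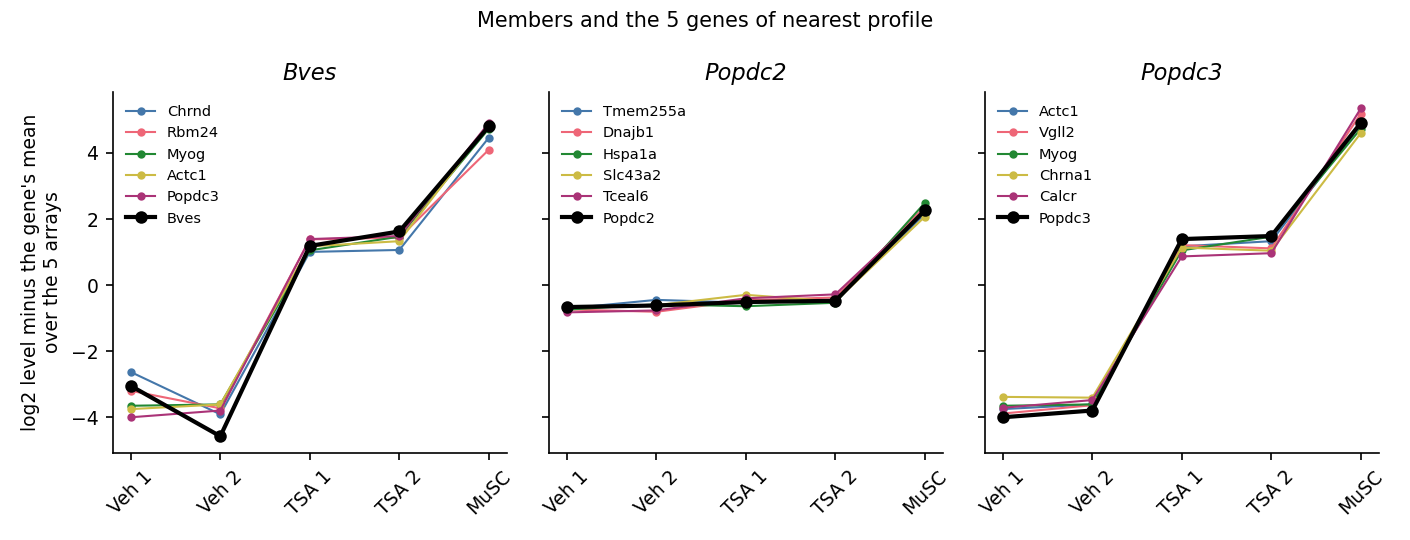
Log2 level, centred on each gene's mean, of the 3 members and their 5 nearest genes on the 5 arrays. The genes near Bves and Popdc3 step up from vehicle to TSA to MuSC, and those near Popdc2 stay close to level between vehicle and TSA and step up in MuSC.

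The wider cyclic AMP and muscle-membrane pathways of the Popeye proteins were read from 7 lists of 112 genes, of which 111 were on the array and 103 passed the filter on dim probes. After TSA, 11 of the 103 (10.7%) were higher and 0 were lower, beside 2.71% and 0.268% of all features. 2 of the 11, Des and Ttn, are also in the marker list of myogenic differentiation, leaving 9. In MuSC against vehicle 31 (30.1%) were higher and 13 (12.6%) lower, beside 10.5% and 11.7% of all features, in a test of 1 MuSC array whose spread comes from the Sca1+ arrays. The 11 genes higher after TSA were also higher in MuSC, in comparisons that share the vehicle arrays. The median difference over the 103 genes was 0.10 after TSA and 0.31 in MuSC. Without TSA replicate 1 or 2 none of the pathway genes passed.

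Among the partner proteins, 0 of 11 passed after TSA, and 3 were higher and 2 lower on the single MuSC array, judged by the spread of the Sca1+ arrays. Xirp1, an actin-binding protein of muscle attachment sites, was 3.33 ± 0.31 higher in MuSC (SE, limma adjusted p = 0.00552) and Cav3, the muscle caveolin, 2.94 ± 0.32 higher (adjusted p = 0.0079). Adcy9, an adenylyl cyclase, was 1.64 higher, while Ndrg4 fell by 2.38 and Anxa5, a membrane-repair annexin, fell by 1.13 on the log2 scale. Kcnk2, the channel that Popeye proteins regulate, was not well above background in MuSC and its difference of -1.50 did not pass (adjusted p = 0.0615).

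Genes of cyclic AMP itself moved in 5 cases after TSA. Of 9 adenylyl cyclases, 2 were higher: Adcy1, whose vehicle levels were below detection, rose by 3.30 ± 0.19 (SE, limma adjusted p = 0.00708, at least 1.97-fold), and Adcy5 rose by 1.44 ± 0.15 (adjusted p = 0.0253). Of 12 cyclic AMP effectors, 2 were higher, and among them Prkar2b, a regulatory subunit of protein kinase A, rose by 2.14 ± 0.15 (adjusted p = 0.0101), from -1.07 and -1.03 in vehicle to 1.03 and 1.14 after TSA, and reached 3.08 in MuSC. Of 16 phosphodiesterases, 1 was higher: Pde3a rose by 2.08 ± 0.22 (adjusted p = 0.0276), with its 3 probes between 0.73 and 2.27.

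Of 13 anchors and inhibitors of protein kinase A, 0 passed after TSA. Akap6, an anchor at the nuclear envelope of muscle, was not well above background in vehicle, so its folds are bounds. It was at least 6.39-fold higher after TSA, without passing the test (limma adjusted p = 0.0928), and at least 24.5-fold higher on the single MuSC array (adjusted p = 0.0185, with the spread of the Sca1+ arrays). These values are of its brightest probe, and its 2 probes gave fitted log2 differences of 1.34 and 3.76 for TSA and of 3.37 and 5.70 for MuSC. In MuSC, Akap12, a scaffold at the cell membrane, was lower, with a log2 difference of -1.64 (adjusted p = 0.00872, with the same spread).

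In the caveolae and membrane-repair list 1 of 21 genes was higher after TSA. Cavin4, the muscle-specific cavin of caveolae, rose by 3.98 ± 0.20 (SE, limma adjusted p = 0.00515), from -4.29 and -3.90 in vehicle to -0.17 and -0.08 after TSA, and reached 2.87 in MuSC. Its level was lowest in vehicle and highest in MuSC.

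Of 26 genes tested in a list built around recessive limb-girdle dystrophy, the disease group that includes BVES and POPDC3, 5 were higher after TSA. The list was not limited to genes that define that group, with Pygm and Des among the others. Des, the intermediate filament of muscle, rose by 3.77 ± 0.16 (limma adjusted p = 0.00424). Sgca, alpha-sarcoglycan, rose by 3.38 ± 0.26 (adjusted p = 0.012), with its 2 probes at 3.38 and 4.73. Ttn, the giant sarcomeric spring, rose at least 9.19-fold by its brightest probe, with its 4 probes between 0.62 and 3.62. Tcap, the titin cap, rose by 2.47 (adjusted p = 0.0101), and Capn3, a muscle protease, was at least 2.58-fold higher (adjusted p = 0.0381). On the single MuSC array, by the spread of the Sca1+ arrays, 6 genes of the list were higher, 6 were lower and 14 did not pass, and the lower ones included the collagen VI chains Col6a2, at a difference of -4.16, and Col6a1, at -3.42, and the laminin chain Lama2, at -2.33.

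**Figure D4:**
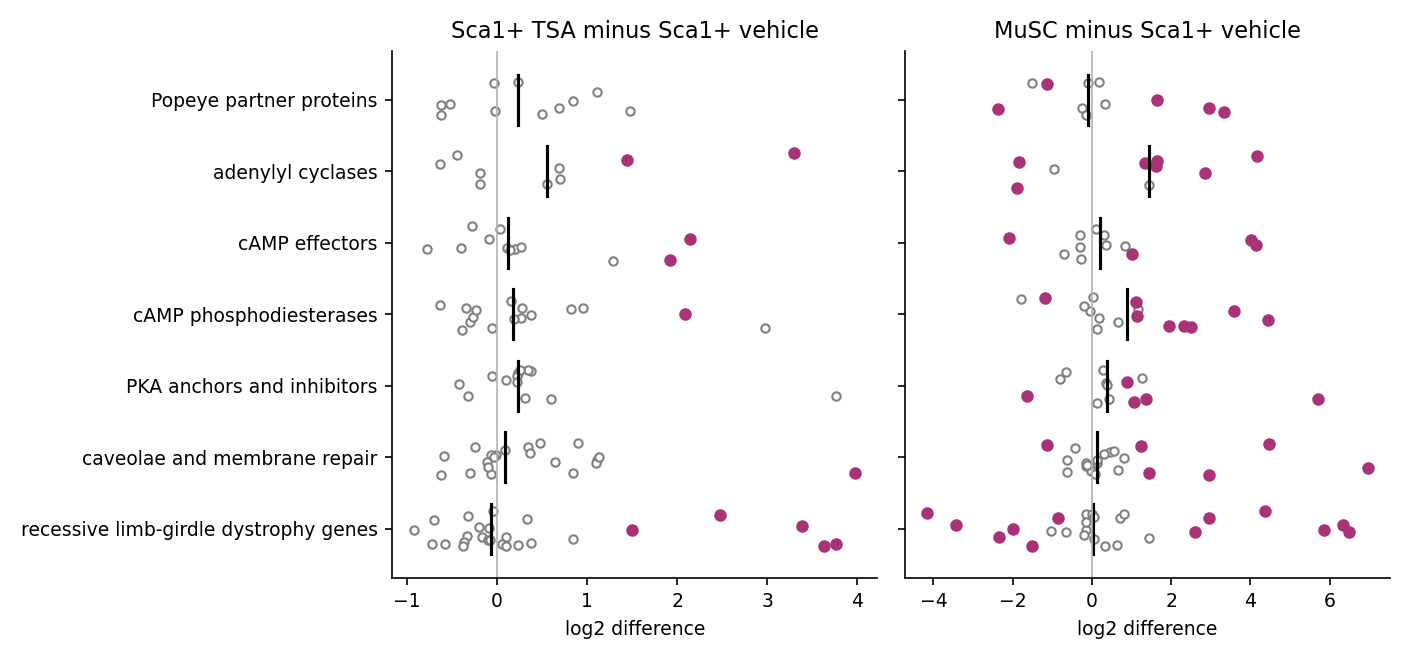
Log2 difference of TSA from vehicle, and of MuSC from vehicle, for each gene of the 7 pathway lists, with genes past the threshold marked. In TSA the 11 genes past it are all on the higher side, and in MuSC they fall on both sides.

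By summed level, the myogenic, smooth muscle, Schwann and heart marker lists followed the order of the Popeye genes, and the other lists did not. A sum is weighted to the brightest genes of its list, so the other genes of a list can differ from it. The sums that follow are of linear levels over a list, in units of the array's 75th percentile. Differences of single genes are on the log2 scale, and their folds are bounds. For the 23 markers of myogenic differentiation and the sarcomere the sum was 7.38 to 7.70 in vehicle, 47.6 to 53.3 after TSA and 299 in MuSC, and 15 of the 23 were higher after TSA. Of these markers Myh2, Tnnc1, Mylpf, Ttn and Mybph were not well above background in vehicle. Actc1 rose by 4.93 ± 0.16 (limma adjusted p = 0.00358). For 12 satellite cell markers the sum was 39.1 to 46.7 in vehicle, 40.4 to 41.7 after TSA and 164 in MuSC. After TSA 5 of them were higher, among them Chrdl2 at least 14.3-fold and Calcr at least 4.99-fold. The median log2 differences from vehicle over these 12 markers were 1.24 after TSA and 4.09 in MuSC, although the sum after TSA stayed within the vehicle range. Myf5, Calcr and Chrdl2 were not well above background in vehicle. The 2 probes of Fgfr4 gave log2 differences of -0.77 and 4.22 after TSA and of 0.12 and 8.48 in MuSC. The sum, the count and the medians use its brighter probe, the one with the smaller differences.

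For 14 smooth muscle and pericyte markers the sum was 75.4 to 82.0 in vehicle, 578 to 626 after TSA and 1614 in MuSC, with 9 higher after TSA, Cnn1 by 6.12 and Myocd at least 18.2-fold, and with Lmod1 and Myocd not well above background in vehicle. For 10 Schwann cell markers it was 3.68 to 3.77, 18.3 to 20.04 and 59.8, with 6 higher after TSA. For 10 heart muscle markers it was 0.84 to 1.01, 1.53 to 1.71 and 11.1, with 1 of 8 tested, Tnnt2, higher after TSA and with Myl7 and Hcn4 not well above background on any array group. Tnnt2 differed from vehicle by 4.10 after TSA and by 7.80 in MuSC, while the medians over the 8 were 0.39 and 0.18. The order of this sum therefore does not describe most of the list. Mast cell and red cell markers rose after TSA without being high in MuSC, at 1.90 to 2.25, 30.5 to 33.2 and 1.35 for mast cells and 39.3 to 41.1, 602 to 627 and 15.6 for red cells, with 6 of 7 and 3 of 4 tested higher. Fibroadipogenic progenitor markers went the other way, at 3825 to 5167, 1932 to 2297 and 325, with Pi16 lower after TSA (difference -1.37, adjusted p = 0.0463) and the other 11 of 12 not passing. Endothelial (1 of 10 higher, Vwf) and macrophage markers (0 of 10) had sums of 121 to 156, 189 to 201 and 70.9, and of 170 to 239, 125 to 129 and 83.7.

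Of the genes behind the sorting gate, Ly6a, which encodes Sca1, was lower in MuSC, at a difference of -5.07 from vehicle (limma adjusted p = 0.00149, for 1 MuSC array with the spread of the Sca1+ arrays). Itga7, a7-integrin, rose after TSA by 3.34 (limma adjusted p = 0.00537) and was 5.80 higher in MuSC, and Cd34 was 3.19 lower in MuSC on the log2 scale (difference -3.19). The differences of Ly6a (-0.73, adjusted p = 0.115) and Cd34 (-0.72, adjusted p = 0.114) after TSA did not pass. In a bulk sample more cells of a type and more RNA per cell cannot be told apart, so the levels of Bves and Popdc3 could not be assigned to a cell type, and the part of the marker differences in the Popeye gene differences was not tested.

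**Figure D5:**
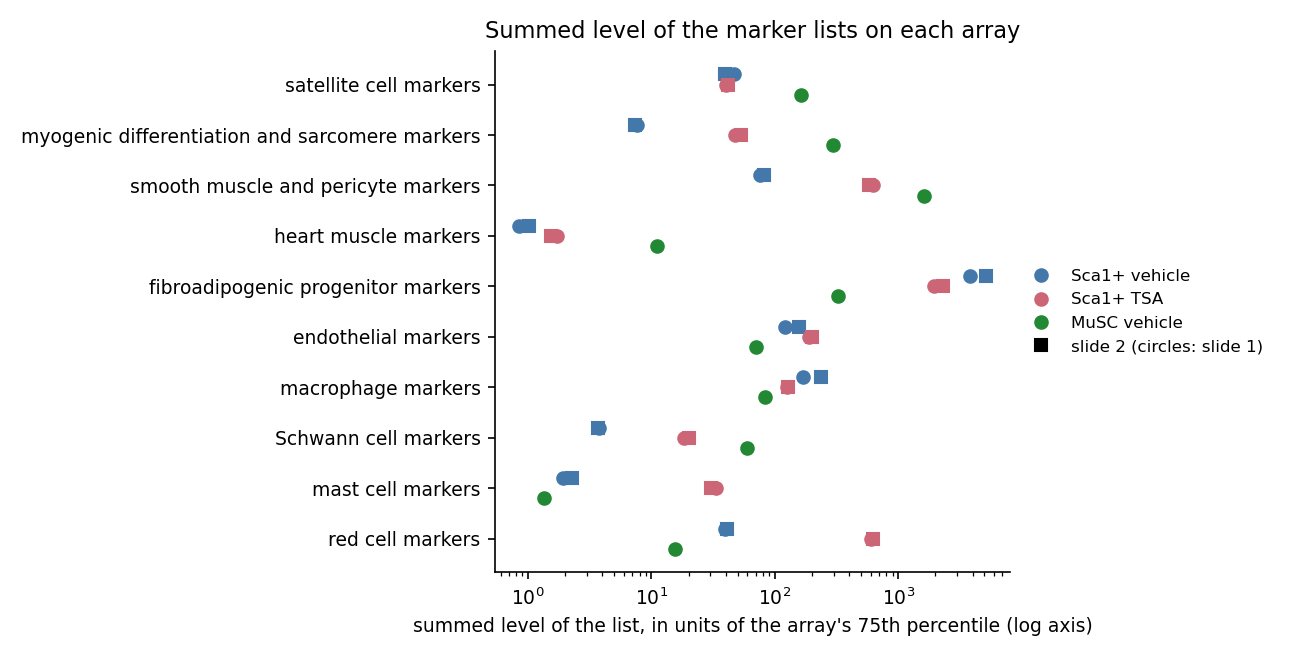
Summed level of each marker list on each array, in units of the array's 75th percentile on a log axis, by group. The myogenic list rises from 7.38 to 7.70 in vehicle to 47.6 to 53.3 after TSA and 299 in MuSC, while mast cell and red cell lists are higher on the 2 TSA arrays than on the other 3.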

How the data were processed

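The deposited files hold fluorescence intensity per spot from Agilent Feature Extraction 10.7.3.1, per the file headers: the processed signal is background-subtracted by that software. The authors' deposited value table holds log2 values that rank probes as the scanner values do (Spearman 1, array medians 4.67 to 4.68); its scaling is not given in the sources used here, and it served as an alternative.

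Outlier spots were left out, spots of a probe averaged, log2 processed signal taken minus each array's 75th percentile, and a gene represented by its brightest probe. Genes well above background on all arrays of at least 1 group were tested with limma 3.58.1 (R 4.3.3; 3 groups, 5 arrays, 2 residual degrees of freedom), checked on simulated data. Symbols came from RefSeq accessions for 26413 probes and from the design name for 574. The other 28694 kept the array's name. The replicate number equals the slide; 2 pairs do not settle whether it pairs samples (correlation of deviations 0.348).

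Genes were named by rank of difference within fixed lists; Capn3, Adcy9, Ndrg4, Anxa5, Kcnk2, Akap12 and the collagen and laminin chains were named after their values were seen. Members and lists were chosen with earlier results of these data known. The value of 1 pathway gene is not reported here.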

Additional observations from a re-analysis of the deposited data

How the results depend on the processing

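In the test of TSA against vehicle, Bves stayed past the threshold under the other scalings, the authors' table, normexp and every probe as a feature, and Popdc3 under all of those and without the filter; Bves without the filter gave 5.21 at an adjusted p of 0.0736. With slide entered as a replicate block, the adjusted p was 0.0171 for Bves, 0.00335 for Popdc3 and 0.570 for Popdc2, and no member's call changed; the block gave 932 features higher and 166 lower. Leaving out 1 array, with a lone sample assumed to vary like the other groups, gave 4.45 to 5.98 for Bves, 0.12 to 0.17 for Popdc2 and 5.23 to 5.43 for Popdc3, 0 to 319 features higher and 0 to 2 lower, and 0 to 8 pathway genes higher. It gave 1588 to 2010 features higher and 1834 to 2288 lower in MuSC, with 18 to 26 pathway genes higher and 9 to 11 lower. The features called after TSA numbered 1327 higher and 4337 lower with normexp, 1297 and 175 with median scaling, 280 and 3 with no filter, and 46 lower with every probe as a feature. Pathway genes higher after TSA numbered 24 with normexp (4 lower), 17 with median scaling and 6 with no filter. In MuSC, no filter gave 1571 features higher and 1809 lower. Untested MuSC differences from vehicle moved to 4.55 (Bves), 2.57 (Popdc2) and 4.001 (Popdc3) with normexp; Popdc2 moved to 2.95 with quantile normalization, 2.96 with the percentile over detected probes, 2.95 with median scaling and 2.94 in the authors' table, and Popdc3 to 9.14 with quantile normalization and 9.06 in the authors' table. From TSA they moved to 2.97 (Bves), 2.41 (Popdc2) and 2.90 (Popdc3) with normexp, to 2.71 for Popdc2 with median scaling and to 3.54 for Popdc3 with the replicate block. Leaving out 1 array gave 7.85 to 9.37, 2.87 to 2.92 and 8.70 to 8.90 from vehicle and 3.18 to 3.61, 2.73 to 2.77 and 3.42 to 3.51 from TSA, for Bves, Popdc2 and Popdc3. The cause of these shifts was not tested. Normexp used the spot median, since the mean is not in every file, with an offset of 50 added to the signals. Fitting only the TSA and vehicle arrays changed nothing, and signals below background limit the Bves and Popdc3 vehicle levels.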
